A study of Schmidtea mediterranea with 6 samples.

Results

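Planarian muscle produces many proteins of the extracellular matrix (ECM) besides collagen, and 36 contigs that encode such proteins were followed here after RNAi of *hmcn-1*, the gene for the matrix glycoprotein hemicentin-1. A contig is an assembled transcript of the dd_Smed_v6 transcriptome. The 36 were chosen from the 765 contigs that the study screened for matrix proteins: 73 were assigned to muscle by the study from single-cell data, 54 of these are not collagens, and *hmcn-1* itself, 16 contigs on the study's own gene lists and 1 contig with MRC1 as best human match were then left out. All 36 are among the 28742 contigs of the count table. The rule itself states no value of the RNAi comparison, but it leaves out the MRC1-like contig by name, and members were chosen with earlier results of these data known. The choice has a limit as a definition of matrix proteins, because only 20 of the 36 are in the study's matrisome. It set the other 16 aside: 12 for a transmembrane segment, 3 for lack of a signal peptide and 1 as an unclear transcript.

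Asexual *Schmidtea mediterranea* of the strain CIW4 were fed dsRNA against *hmcn-1*, or against *unc-22*, a *C. elegans* sequence that planarians lack, and these *unc-22* animals are the controls. Each animal had 4 feedings, and tail fragments were taken at 13 days of RNAi, 5 days after the last feeding. There were 3 libraries per condition, each of poly(A) RNA from 5 pooled tails. Tail fragments hold other cells besides muscle, so fewer muscle cells and less RNA per muscle cell cannot be told apart in these libraries.

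In animals generally, collagen chains are hydroxylated inside the cell before they fold into a triple helix, and proteases of the tolloid family trim procollagens once they are secreted. Glycoproteins and proteoglycans then link the fibrils, the basement membrane and cell surface receptors. In planarians muscle also secretes signals that tell other cells their position in the body, among them inhibitors of Bmp and Wnt signalling, so a list of muscle matrix genes holds both structural proteins and signalling regulators.

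The nested primers by which the study cloned its fragments identify the transcripts of 9 of the 36 members. The inner forward and the reverse primers, 5′ to 3′, are shown for the only member that passed the test (*phred-1*), for the ROBO1-like member whose conditions did not overlap, and for the member with the largest increase (*phmus-1*).
phred-1 inner forward: ctttggtgttggggttcgg
phred-1 reverse: tccttcgcagtgtgaggc
dd_7921 inner forward: tggatgacggaaatcaaggtc
dd_7921 reverse: aaccgagagttgccggtg
phmus-1 inner forward: acgtaaaggaagaatgccccc
phmus-1 reverse: cccgaatatcccgctggg

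Libraries held 6374450 to 11887127 reads. Expression is given as CPM, the counts of a contig per 1000000 reads of the TMM-scaled library, and it is not corrected for transcript length, so levels are compared between libraries and not between genes. The target checked the labels. *hmcn-1* was at 205, 206 and 204 CPM in the controls and at 18.5, 18.5 and 16.7 CPM after RNAi, which is 8.71% of the control mean. Canonical muscle contigs (myosin heavy chains, troponin, tropomyosin, calponin and titins) were abundant in all 6 libraries, with a summed level of 7965 to 9549.9 CPM. Control replicate 1 stood apart from control replicates 2 and 3, its counts giving a chi-square of 9.63 and 7.77 per degree of freedom against theirs, where they gave 2.77 against each other. Against RNAi replicates 1, 2 and 3 control replicate 1 gave 6.66, 6.98 and 6.80, lower than against either other control. Control replicates 2 and 3 gave 4.86 to 7.39 against the RNAi libraries. The members called without control replicate 1 are given with their values.

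Of the 36 members, 34 had enough reads to be tested. The transmembrane protein *phred-1*, 1 of the 34, was lower in *hmcn-1(RNAi)* tails at an adjusted p under 0.05 (edgeR, quasi-likelihood, Benjamini-Hochberg over 15333 contigs), and 0 were higher. Over all contigs 1.13% were called, 0.613% lower and 0.515% higher, and no test sets 1 of 34 members apart from these shares. The members leaned downwards without passing the test. There were 23 below 0 and 11 above, and their median log2 fold change was -0.12, with quartiles of -0.18 and 0.01, where all contigs tested had a median of 0.00. At an unadjusted p under 0.05, 11 members were lower and 1 was higher, beside 5.52% and 5.50% of all contigs. In 9 members the conditions did not overlap, with each RNAi library lower than each control, which held for 7.78% of all contigs, and in 0 members was each RNAi library higher, which held for 7.81%. Changes were small, and 31 of the 34 members, or 91.2%, were within 1.2-fold of control, compared with 85.4% of all contigs. The exceptions were *mst-1*, *adamts20* and *phmus-1*.

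**Figure D1:**
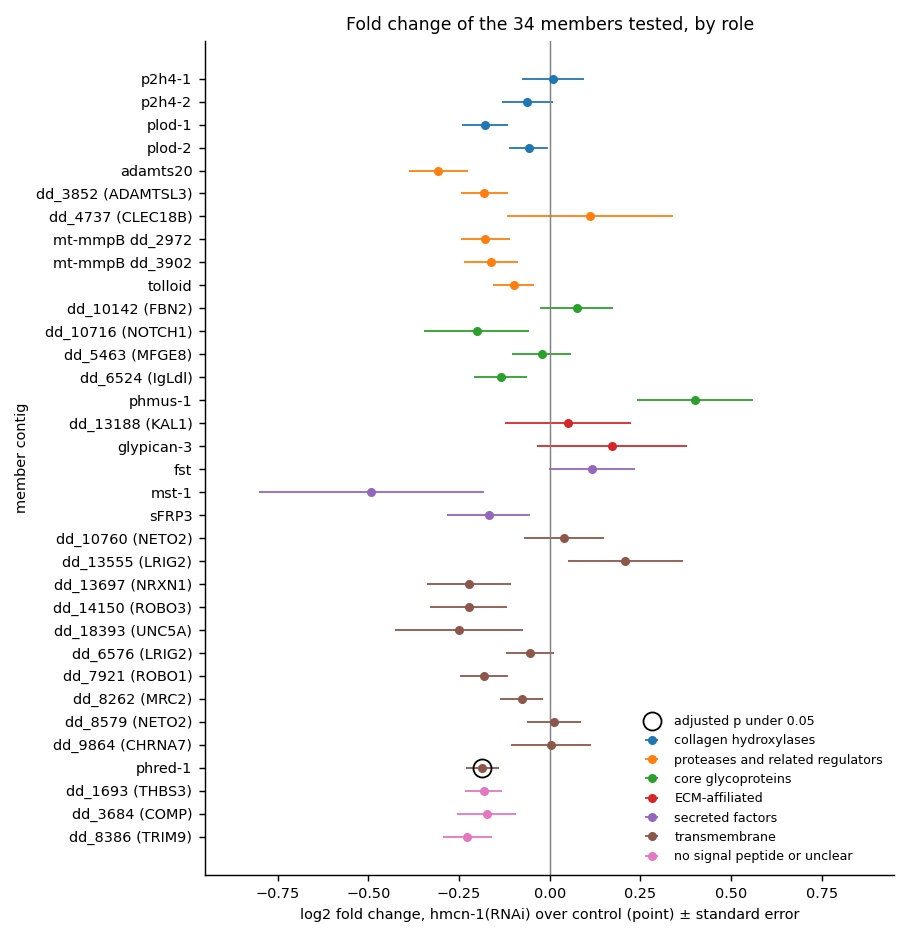
Log2 fold change of *hmcn-1(RNAi)* over control for the 34 members tested (points) with its standard error (bars), coloured by role. Of the members, 23 sit left of 0 and 11 right of it, and the circled point, *phred-1*, is the only one with an adjusted p under 0.05.

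The collagen-modifying enzymes came first in the order of matrix assembly. *p2h4-1* and *p2h4-2* match the alpha subunits of prolyl 4-hydroxylase, which hydroxylates proline and stabilizes the triple helix, and *plod-1* and *plod-2* match lysyl hydroxylases, whose products take part in cross-links. *p2h4-1* was at 31.2, 32.0 and 37.8 CPM in controls and at 31.6, 33.9 and 36.2 CPM after RNAi, and its conditions overlapped fully (log2 fold change 0.01, SE 0.085, edgeR adjusted p = 0.982). *p2h4-2* was at 50.3, 52.2 and 59.7 CPM in controls and at 49.7, 50.4 and 55.2 CPM after RNAi, with control replicate 3 the highest of the 6 (-0.06, SE 0.070, edgeR adjusted p = 0.814). Neither prolyl hydroxylase contig therefore differed beyond the spread between libraries.

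The lysyl hydroxylases were less alike. *plod-1* was at 64.9, 72.6 and 73.0 CPM in controls and at 57.7, 65.0 and 63.7 CPM after RNAi, where the highest RNAi library just exceeded the lowest control (log2 fold change -0.18, SE 0.063, edgeR unadjusted p = 0.00783, adjusted p = 0.224). *plod-2* was at 106, 99.2 and 96.7 CPM in controls and at 96.8, 94.1 and 98.5 CPM after RNAi, within the range of the controls in all but 1 library (-0.06, SE 0.054, edgeR adjusted p = 0.757). Over the 4 hydroxylases the median log2 fold change was -0.06, and 0 of 4 passed the test. At an unadjusted p under 0.05, 1 was lower, beside 5.52% of all contigs. Whether the fold changes of *plod-1* and *plod-2* differ from each other was not tested.

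Among the proteases and related regulators, 5 of 6 members were below 0 and 3 did not overlap between conditions, beside 7.78% of all contigs, but 0 passed the test, with 4 lower at an unadjusted p under 0.05, beside 5.52% of all contigs. *adamts20* encodes a metalloprotease with thrombospondin type 1 repeats, a family known in vertebrates for cleaving proteoglycans. It was at 34.8, 39.4 and 34.3 CPM in controls and at 28.0, 30.6 and 29.4 CPM after RNAi. The 3 RNAi libraries were all below the controls, at 81.0% of the control mean, and the difference just missed the threshold (log2 fold change -0.31, SE 0.082, edgeR adjusted p = 0.0560). Dropping control replicate 1 gave *adamts20* an edgeR adjusted p of 0.0375. Leaving out control replicate 2 instead weakened the difference (log2 fold change -0.24, edgeR adjusted p = 0.317). The edgeR adjusted p was 0.248 when RNAi replicate 1 was dropped and 0.168 when RNAi replicate 3 was. Of 13 alternative fits (edgeR, limma-voom or DESeq2), 3 had a value under 0.05. The highest value was 0.878, in DESeq2 without independent filtering.

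The dd_3852 contig best matches ADAMTSL3, a relative of this family without protease activity in humans. It was at 57.7, 57.9 and 56.6 CPM in controls, the tightest controls of any member, and at 51.3, 47.4 and 52.9 CPM after RNAi (log2 fold change -0.18, SE 0.064, edgeR adjusted p = 0.231). The conditions did not overlap. A membrane-anchored matrix metalloproteinase, *mt-mmpB*, is represented by 2 partial contigs, which are not independent of each other. Its dd_3902 contig was at 40.1, 39.1 and 41.4 CPM in controls and at 38.0, 35.8 and 34.3 CPM after RNAi, without overlap (-0.16, SE 0.074, edgeR adjusted p = 0.410). Its dd_2972 contig was at 55.7, 63.1 and 67.9 CPM in controls and at 57.2, 52.0 and 56.4 CPM after RNAi, and there control replicate 1 lay among the RNAi libraries (-0.18, SE 0.068, edgeR adjusted p = 0.276). The contigs of this gene thus gave fold changes of the same size, and their ratio was 1.39 to 1.64 in controls and 1.45 to 1.65 after RNAi.

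*tolloid* matches the protease that removes procollagen propeptides and, in other animals, cleaves the Bmp inhibitor Chordin. It was at 94.9, 101 and 112 CPM in controls and at 97.8, 96.5 and 93.9 CPM after RNAi. The means differed by less than the spread of the controls, with control replicate 3 the highest (103 ± 8.78 against 96.1 ± 1.98 CPM, SD, n = 3, log2 fold change -0.10, SE 0.057, edgeR adjusted p = 0.556). Without control replicate 3 the fold change of *tolloid* was -0.03, and without control replicate 1 it was -0.15. The remaining member, dd_4737, carries a CAP domain and a ShKT domain. It had a mean of only 30.2 reads per library, 3.03 to 3.75 CPM in controls and 3.08 to 4.21 CPM after RNAi.

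The core glycoproteins showed no common direction, with 3 below 0, 2 above and a median log2 fold change of -0.02. *phmus-1* has Ig, LDLa and laminin IV domains, a combination also found in perlecan, the basement membrane proteoglycan that is its best human match. The paper names it *pharynx muscle-1* and describes it as a pharynx marker. It was at 7.57, 8.08 and 6.67 CPM in controls and at 8.77, 8.06 and 12.1 CPM after RNAi. This was the largest increase of any member, at 129.6% of the control mean (quotient of the means 7.44 ± 0.714 and 9.64 ± 2.15 CPM, SD, n = 3), yet it came mostly from RNAi replicate 3, and RNAi replicate 2 lay within the controls. It did not pass the test (log2 fold change 0.40, SE 0.16, edgeR adjusted p = 0.307), and without RNAi replicate 3 the fold change was 0.18 (adjusted p = 0.809). Among 18 contigs that mark muscle strongly in the single-cell data, most of them collagens, *phmus-1* was the only one above 0.

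The other 4 core glycoproteins lay between -0.20 and 0.07 on the log2 fold change scale. In order they were dd_10716, a protein of EGF repeats, at -0.20, dd_6524, with Ig and LDLa domains, at -0.14, dd_5463, whose discoidin-type domain is shared with MFGE8, at -0.02, and dd_10142, which matches the microfibril protein fibrillin-2, at 0.07. Conditions overlapped in all 4, and the smallest edgeR adjusted p was 0.522, for dd_6524. Both ECM-affiliated members were just above 0 and rested on few reads. These were *glypican-3*, a heparan sulfate proteoglycan of the cell surface, with 3.51 to 4.37 CPM in controls and 4.09 to 5.16 CPM after RNAi (0.17, SE 0.21), and dd_13188, an anosmin-like protein, with 5.34 to 6.21 and 5.73 to 6.34 CPM (0.05, SE 0.17).

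Of the secreted signalling factors, 0 of 3 passed the test. *sFRP3* is a secreted Frizzled-related protein, a family that binds Wnt ligands. It was at 14.98, 15.46 and 15.52 CPM in controls and at 14.97, 13.39 and 12.77 CPM after RNAi. The conditions did not overlap only by the margin between 14.98 and 14.97 CPM (log2 fold change -0.17, SE 0.11, edgeR adjusted p = 0.645). *fst*, or follistatin, binds and inhibits activins and was at 13.4 to 14.9 CPM in controls and 13.9 to 17.7 CPM after RNAi (0.12, SE 0.12). *mst-1* encodes a kringle protein related to macrophage stimulating protein. It had the lowest fold change of all members (-0.49, SE 0.31, edgeR adjusted p = 0.608), but with 9 to 31 reads per library it was also the least precise, going from -0.73 to -0.17 as single libraries were left out, and its controls ranged from 2.09 to 3.63 CPM and its RNAi libraries from 1.05 to 2.61 CPM.

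**Figure D2:**
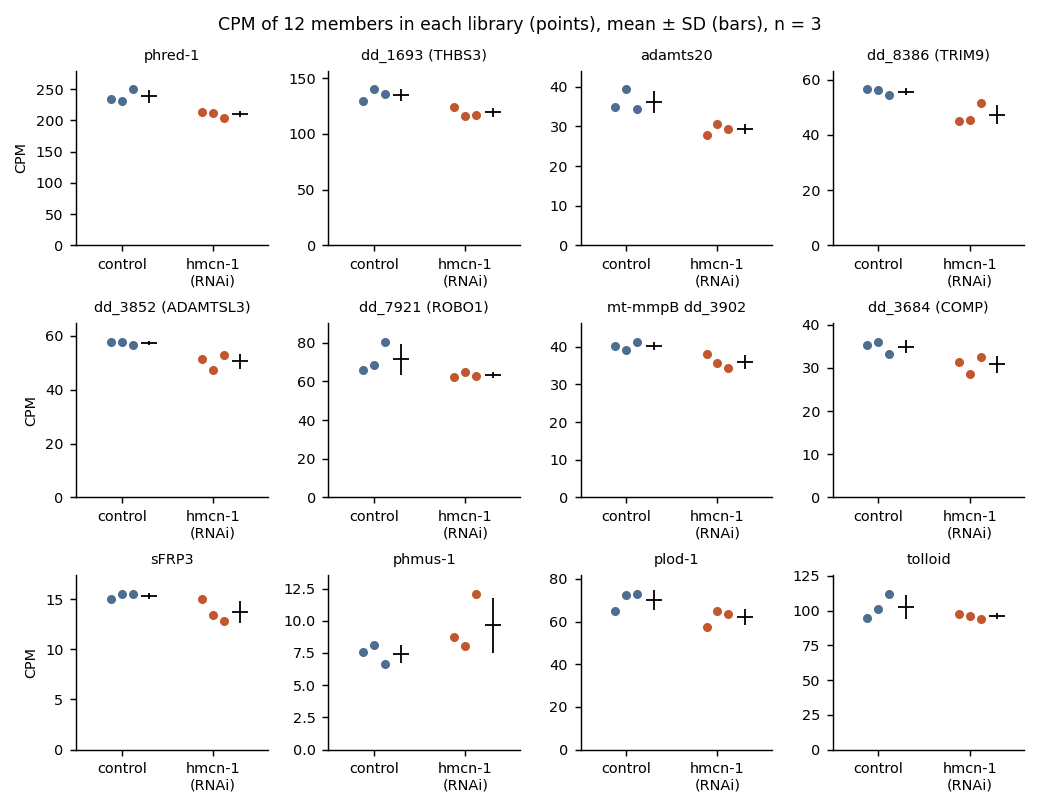
CPM of 12 members in each library (points, controls in blue and *hmcn-1(RNAi)* in orange, in replicate order) with the mean and SD of each condition (black, n = 3), on axes that start at 0. The first 9 panels are the members whose conditions did not overlap, all lower after RNAi, and in *phmus-1* RNAi replicate 3 stands above the other libraries at 12.1 CPM.

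The transmembrane group held the only call. *phred-1* encodes a protein with EGF-like and laminin G domains and was among the 8 members that the study also targeted in its RNAi screen. The paper reports that RNAi of *phred-1* affected how body wall muscle fibers elongate, and that RNAi of the member dd_10716 affected how smooth the epidermis is. In the libraries used here *phred-1* was at 235, 231 and 249.7 CPM in controls and at 213, 212 and 204 CPM after RNAi of *hmcn-1*. Each RNAi library was thus below each control. Its mean fell to 88.0% of control, from 238 ± 10.1 to 209.7 ± 4.72 CPM (SD, n = 3, log2 fold change -0.19, SE 0.044, edgeR adjusted p = 0.0266). It was the most deeply read member, with a mean of 1918 reads per library. The call was lost without control replicate 3 (-0.15, edgeR adjusted p = 0.233) and when any RNAi replicate was left out (edgeR adjusted p = 0.0559 to 0.174), and in DESeq2 without independent filtering (-0.19, adjusted p = 0.228).

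Robo receptors bind the secreted guidance cue Slit, and 2 members match them. The dd_7921 contig (ROBO1) was at 65.7, 68.3 and 80.7 CPM in controls and at 62.2, 65.0 and 62.9 CPM after RNAi, without overlap but with less than 1 CPM between the highest RNAi library and the lowest control (log2 fold change -0.18, SE 0.066, edgeR adjusted p = 0.253). Without control replicate 3 the fold change of dd_7921 was -0.08. The dd_14150 contig (ROBO3) was at 20.5, 23.2 and 20.5 CPM in controls and at 20.5, 15.6 and 18.9 CPM after RNAi, with RNAi replicate 1 at the level of the controls (-0.22, SE 0.11, edgeR adjusted p = 0.434). UNC5 receptors bind netrins, and the UNC5A-like dd_18393 was at a similar value with less precision (-0.25, SE 0.18). Neither Robo contig nor the UNC5A-like one passed the test.

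The remaining transmembrane members lay on either side of 0 and overlapped between conditions. The neurexin-like dd_13697 was at 16.3, 15.0 and 17.5 CPM in controls and at 12.9, 13.3 and 15.3 CPM after RNAi, and only RNAi replicate 3 reached the range of the controls (log2 fold change -0.22, SE 0.12, edgeR adjusted p = 0.494). In the LRIG2-like pair, which carry leucine-rich repeats, dd_13555 was at 0.21 (SE 0.16) and dd_6576 at -0.05 (SE 0.065). In the NETO2-like pair, whose CUB and LDLa domains are those of receptor-associated proteins in vertebrates, dd_10760 was at 0.04 (SE 0.11) and dd_8579 at 0.01 (SE 0.074). The MRC2-like dd_8262, related to a vertebrate collagen uptake receptor, was at -0.08 (SE 0.060), and dd_9864, a ligand-gated ion channel, at 0.00 (SE 0.11). Precision was highest for dd_8579, dd_6576 and dd_8262, each of which was within 1.2-fold of control. *ndl-2*, an Ig-domain protein related to FGF receptors, was not tested, with 1 to 6 reads per library.

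All 3 tested members without a signal peptide were lower in every RNAi library than in any control, beside 7.78% of all contigs, although none passed the test. Thrombospondins are secreted glycoproteins that bind collagens and other matrix proteins, and 2 of the 3 carry their type 3 repeats. The dd_1693 contig (THBS3) was at 129.5, 140.1 and 136 CPM in controls and at 124, 116 and 117 CPM after RNAi (log2 fold change -0.18, SE 0.051, edgeR adjusted p = 0.0683). Without control replicate 1 the edgeR adjusted p of dd_1693 was 0.0214. That was the only 1 of 14 alternative fits (edgeR, limma-voom or DESeq2) with a value under 0.05, and the highest value was 0.736. The dd_3684 contig (COMP) was at 35.3, 36.1 and 33.2 CPM in controls and at 31.2, 28.6 and 32.6 CPM after RNAi, with RNAi replicate 3 closest to the controls (-0.17, SE 0.081, edgeR adjusted p = 0.418).

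The third, dd_8386, carries the RING and B-box domains of TRIM ubiquitin ligases, proteins that act inside cells. It was at 56.5, 56.2 and 54.5 CPM in controls and at 45.1, 45.5 and 51.5 CPM after RNAi (log2 fold change -0.23, SE 0.067, edgeR adjusted p = 0.101). A contig with SERPINA3 as best match, dd_97147, had 0 reads in all 6 libraries. A count of 0 allows up to 3 reads per library, which is 0.253 to 0.482 CPM, and this limit covers counting error only.

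The transcripts that the study placed in the matrisome and those it set aside did not part in direction. The 20 matrisome members had a median log2 fold change of -0.08 with 13 below 0, and the 14 tested members set aside had a median of -0.18 with 10 below 0. The difference between these groups was not tested. Values below 0 were more frequent among the members with more reads, although the lowest single values were not. Reads also depend on transcript length, so this is no ranking by expression. Of the 17 members with the most reads, from 294 to 1918 per library on average, 15 were below 0, with a median of -0.14 and a lowest value of -0.23, whereas of the 17 with fewer reads 8 were below 0, with a median of 0.00 and a lowest value of -0.49. Contigs of all kinds in these same ranges of reads were evenly divided, with 50.9% and 49.2% below 0. Standard errors were 0.044 to 0.085 among the members with more reads and 0.081 to 0.31 among the others.

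Library by library, the conditions overlapped in the median ratio of the members but not in their summed level. The median over members of the log2 ratio to the mean of all 6 libraries was -0.022, 0.067 and 0.074 in the controls and -0.037, -0.082 and -0.015 after RNAi, so control replicate 1 lay within the range of the RNAi libraries. The highest value of the 6 was in control replicate 3 for 14 of 34 members and in control replicate 2 for 8. Added up, the 34 members had 1467, 1526 and 1568 CPM in controls and 1398, 1376 and 1412 CPM after RNAi, so the sum after RNAi was 91.8% of that in controls, and 92.5% without *phred-1*. The members had a median coefficient of variation of 7.50% among controls and 6.47% after RNAi, compared with 8.46% and 7.37% over all contigs. The median of mean reads per library was 281 over the 36 members and 148 over all contigs tested. Reads per contig were not matched in this comparison.

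Other muscle contigs moved in the same direction in the same libraries. Collagens assigned to muscle were below 0 in 19 of 19 contigs, with a median log2 fold change of -0.16 and 9 called lower. The canonical muscle contigs were below 0 in 7 of 7, with a median of -0.22 and 4 called lower. Their quartiles were -0.25 and -0.16, and their values ran from -1.06 to -0.09. The summed level of the canonical muscle contigs was 8995 to 9549.9 CPM in controls and 7965 to 8213 CPM after RNAi, without overlap, and its part in the members' values was not tested. These lists share their libraries with the members, so the values are given side by side and the difference between lists was not tested. The 17 muscle-assigned contigs left out of the 36 had a median of -0.09, with 13 below 0, 4 above and 0 called by edgeR. The highest was the MRC1-like dd_3266, left out by name, at 0.83 (SE 0.65, edgeR adjusted p = 0.747). At an unadjusted p under 0.05, 4 of them were lower, beside 5.52% of all contigs.

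Contigs of the screened set assigned to other cell types had a median log2 fold change of 0.00 over 278 contigs, of which 5 were called, all higher, 3 of them among 33 intestine contigs. By cell type, the median of intestine contigs was 0.11, with 28 of 33 above 0. That of cathepsin+ cell contigs was 0.07, with 50 of 70 above 0. Others leaned downwards as the members did. The median of neural contigs was -0.07, with 54 of 77 below 0, and that of epidermal contigs -0.06, with 16 of 23 below 0. The 4 neoblast contigs had a median of -0.14, with 3 below 0. Strong markers of other cell types had medians between -0.08 and 0.08. The median was 0.05 over 22 cathepsin+ cell markers, 0.08 over 8 intestine markers, -0.05 over 4 pharynx markers, -0.08 over 3 neural markers and 0.01 over 38 cell cycle contigs of dividing neoblasts. At an unadjusted p under 0.05 (edgeR), 6 cathepsin+, 3 intestine, 1 pharynx and 1 cell cycle contig were higher, beside 5.50% of all contigs. At that threshold 1 cathepsin+, 1 neural and 2 cell cycle contigs were lower, beside 5.52%. Of the 8 intestine markers 7 were above 0. None of these markers was called except 1 cell cycle contig that was higher. Their summed levels overlapped between conditions for cathepsin+ cells (13899 to 14569.8 CPM in controls, 14118 to 15118 CPM after RNAi) and for the intestine (13798 to 16472 and 15893 to 16188 CPM), but not for the 3 neural markers (158 to 201 CPM in controls and 136 to 145 CPM after RNAi), whose part in the members' values was not tested.

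**Figure D3:**
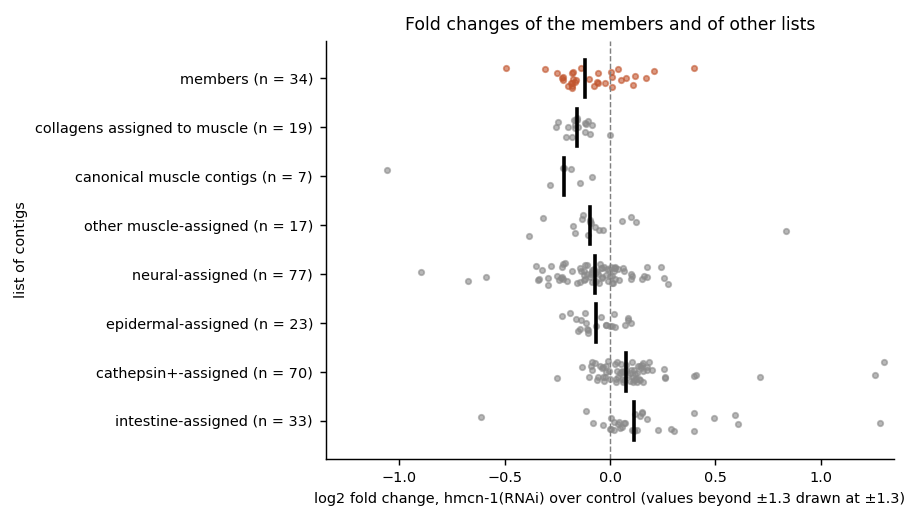
Log2 fold change of each contig tested (points) in the members, in other muscle lists and in screened contigs assigned to 4 other cell types, with the median of each list (black bars). The median of the members is -0.12, that of the collagens -0.16 and that of the canonical muscle contigs -0.22. The medians of neural and epidermal contigs also lie to the left of 0, whereas those of cathepsin+ and intestine contigs lie to the right.

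**Figure D4:**
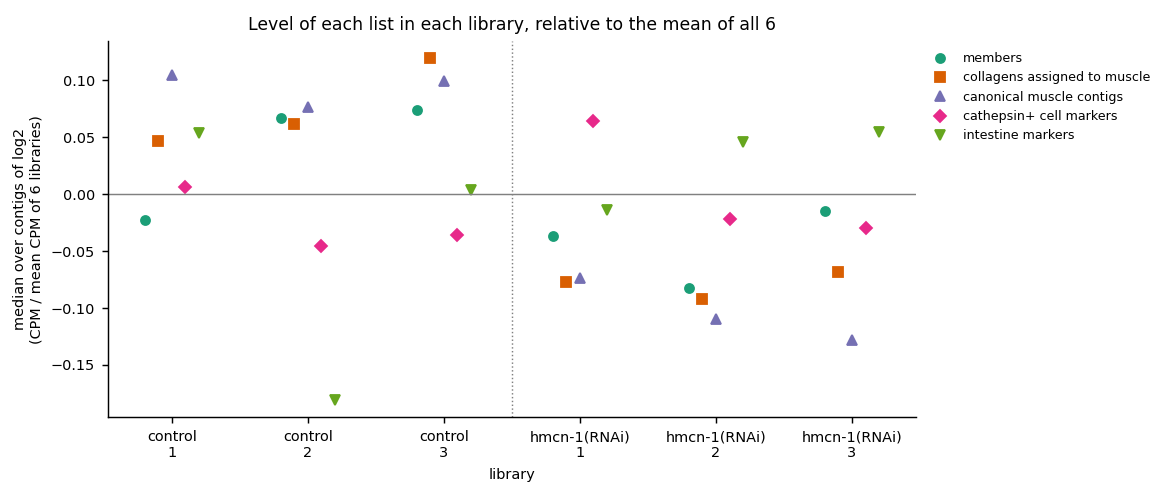
Median over contigs of the log2 ratio of each library's CPM to the mean of the 6 libraries, for the members, muscle collagens, canonical muscle contigs and 2 lists of markers of other cells. Collagens and canonical muscle contigs are above 0 in the 3 controls and below 0 in the 3 *hmcn-1(RNAi)* libraries, whereas the members are at -0.02 already in control replicate 1.

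The wider pathways to which the members belong, taken from all cell types of the screened set, had median log2 fold changes between -0.08 and 0.01. Single contigs lay further out, from *bmp4* at -0.70 (edgeR adjusted p = 0.316) to the MRC1-like dd_1489 at 2.04 (edgeR adjusted p = 0.633). For collagen processing (hydroxylases, tolloid-like proteases, SPARC and lysyl oxidases), 15 of 21 contigs were tested (the 21 include an untested BMP15-like contig, taken in by the start of its name), 1 was called higher and 0 lower, and the median log2 fold change was -0.01. The call was dd_7096, a lysyl oxidase-like contig assigned to intestine and no member, at 24.8, 24.2 and 24.0 CPM in controls and 37.1, 36.2 and 37.8 CPM after RNAi (0.61, SE 0.081, edgeR adjusted p = 1.5e-05). Lysyl oxidases cross-link collagen. No contig of this list that is a member was called.

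Among guidance cues and receptors (Slit, Robo, netrin, UNC5 and DCC), 20 contigs were tested and 0 were called in either direction. At an unadjusted p under 0.05, 2 were lower, the Robo members dd_7921 and dd_14150, beside 5.52% of all contigs. The median was -0.08 with 15 below 0. Of the secreted Bmp, activin and Wnt regulators, 25 of 33 were tested. At an unadjusted p under 0.05, 3 were lower and 1 was higher, beside 5.52% and 5.50% of all contigs. Without overlap 5 were lower and 2 higher, beside 7.78% and 7.81% of all contigs. In that list 1 contig was called higher, *activin-1*, a ligand assigned to neural cells and singled out here after its values were seen, with 59.7 ± 2.96 CPM in controls and 71.1 ± 4.08 CPM after RNAi (SD, n = 3, log2 fold change 0.26, SE 0.062, edgeR adjusted p = 0.0282). The members of that list, *fst* and *sFRP3*, did not pass the test. Receptors of the kinds among the members (NETO, LRIG, neurexin, MRC, FGFR-like and acetylcholine receptor-like) had 19 contigs tested, 0 called and a median of 0.01. Of these 1 was lower at an unadjusted p under 0.05, beside 5.52% of all contigs.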

How the data were processed

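The authors made libraries with a stranded kit, trimmed reads with cutadapt 1.8, mapped them with Bowtie 1.2.2 and its -best option to the dd_Smed_v6 transcriptome and, with SAMtools 1.9, joined the isotigs of a contig and summed their reads to raw counts per contig, the unit of the table they deposited (tool versions from the submitters' processing notes). The sources used here do not give the use of strand in counting or, beyond that option, the treatment of reads that match several contigs equally well, and related contigs (the LRIG2-like, NETO2-like and hydroxylase pairs) may share reads. The transcriptome has no genome coordinates. The authors also deposited their DESeq2 comparison, with mean normalized counts, fold changes and p-values, which was not used.

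For the comparison, contigs passing filterByExpr (minimum count 10) were scaled by TMM (factors 0.977 to 1.02) and fitted on condition alone by the robust quasi-likelihood method of edgeR 4.0.16 under R 4.3.3. Benjamini-Hochberg adjustment covered all 15333 contigs. The standard error (SE) is the size of the log2 fold change divided by the square root of F. The common biological coefficient of variation was 6.28%. Log2 ratios of libraries were taken on CPM without the prior count of 1 first planned, since every tested member had reads in every library. The procedure was tested on simulated data. Tables and plots used Python 3.11.15, pandas 2.3.3 and matplotlib 3.10.9.

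Groups and replicate numbers came from the sample labels. Replicates are pools of tails, and nothing says that they were reared or fed separately, so p-values measure the spread between these samples. Whether the same replicate numbers pair the libraries could not be decided, as the closing section gives. Every pair of libraries differed by more than counting noise (chi-square per degree of freedom 2.24 to 9.63). Cell types, categories, domains and names of contigs are the study's. Every member is accounted for, with full values for members that passed the test, members whose conditions did not overlap, the hydroxylases, *tolloid*, *phmus-1* and *phred-1*, and other library values where they help. Pathway lists were drawn by the start of the best human match among the screened contigs. Strong markers of a cell type had an area under the curve of at least 0.8 in the study's single-cell data. The members and lists were chosen with earlier results of these data known. No set test was run.

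Alternatives were RLE and upper-quartile factors, limma-voom 3.58.1, no filter, a minimum of 100 counts in 3 libraries, DESeq2 1.42.0 (independent filtering on or off), the replicate number as a term, each library left out, and an adjusted p under 0.01 or 0.10.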

Additional observations from a re-analysis of the deposited data

How the results depend on the processing

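The median log2 fold change of the members stayed below 0 under all alternatives run, from -0.16 to -0.09, with 21 to 28 members below 0. The number of members called, 1, became 2 without a filter on low counts, 0 with DESeq2 without independent filtering or at an adjusted p under 0.01, and 3 at an adjusted p under 0.10, and ranged from 0 to 3 when 1 library was left out. It was 0 without control replicate 3 or any RNAi replicate, and 3 without control replicate 1 (*phred-1*, *adamts20*, dd_1693). The member added without the filter was *adamts20* (edgeR adjusted p = 0.0263). Over all contigs, 173 calls became 339 without a filter, 111 and 66 with DESeq2 with and without independent filtering, 76 at an adjusted p under 0.01 and 278 under 0.10, and 75 (without control replicate 3) to 255 (without control replicate 1) with 1 library left out. The causes were not tested.

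Values near 0 changed sign when single libraries were left out. On the log2 scale *p2h4-1* lay between -0.0455 and 0.102, and the fold change went from -0.115 to 0.0151 for *p2h4-2*, from -0.0209 to 0.141 for dd_10142, from -0.104 to 0.0334 for dd_5463, from -0.0105 to 0.112 for dd_13188, from -0.0185 to 0.178 for *fst*, from -0.00345 to 0.112 for dd_10760, from -0.00590 to 0.0389 for dd_8579 and from -0.0274 to 0.0327 for dd_9864. With upper-quartile factors dd_9864 was at -0.00231. None of these values passed the test. Without control replicate 1, dd_10716 went from -0.20 to -0.32 and *plod-2* from -0.06 to -0.02, and without control replicate 3 the dd_2972 contig of *mt-mmpB* went from -0.18 to -0.11.

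The replicate number was also fitted as a block. Same-numbered libraries deviated together with correlations of 0.0014, 0.225 and 0.052 over 9050 contigs, and libraries of different numbers with -0.246 to 0.178. Deviations were taken from means of 3 libraries, so these correlations cannot decide whether the numbers pair the libraries. With the replicate block 292 contigs and 2 members were called, *adamts20* (edgeR adjusted p = 0.0362) besides *phred-1*. Not every library correlated best with its own number. Depth limits *mst-1*, dd_4737, *glypican-3*, dd_13188 and *ndl-2*, where 1 to 75 reads per library were counted.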
